A study of Mus musculus with 4 samples.

Results

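The genes described here are 49 genes of DNA replication and of the passage from G1 into S phase, taken by name from the annotation of a mouse expression array and sorted by the role of their proteins. They were measured in vascular smooth muscle cells of the aorta after 24 h with prostaglandin E2 (PGE2) in 2 cultures and after 24 h without treatment in 2 control cultures. All 4 cultures were grown from explants of adult C57BL/6J mice, were kept in DMEM and carried the EP4-Tg genotype, the control cultures included. EP4 is a receptor for PGE2 that couples to Gs and raises cAMP. The promoter and the species of the transgene, the ages of the mice and the dose of PGE2 are not given in the sources used here. Cells without the transgene were not analysed here. As the labels describe the cultures as biological replicates, the p-values below measure the spread between these 4 cultures.

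Before a cell copies its DNA, the origin recognition complex, Cdc6 and Cdt1 load the Mcm2-7 ring onto origins, a step called licensing. In S phase, Mcm10, Cdc45 and the GINS complex turn the loaded ring into a moving helicase, and the polymerases, the sliding clamp Pcna and its loaders copy the strands. D-type cyclins with Cdk4 or Cdk6, and E-type cyclins with Cdk2, phosphorylate the retinoblastoma protein and so release E2F factors, which switch on many of these genes. In the wall of a healthy artery smooth muscle cells rarely divide, whereas cells grown out of an explant in serum do.

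Levels are given as log2 of the background-corrected spot intensity relative to the 75th percentile of its array, so that 0 is the level of that percentile, and each change is the PGE2 mean less the control mean, with its standard error from limma. A probe entered the test if the scanner software called it well above background in both cultures of a group, and the brightest such probe stood for its gene. By that rule 44 of the 49 genes were tested among 17660 genes or unnamed probes, and 42 of the 44 were above background on all 4 arrays. The exceptions were Pole2 and Cdk6, which were above background on both control arrays and on 1 of 2 PGE2 arrays. Orc1, Cdc45, Pola2, Ccne2 and E2f2 were not tested. Orc1, Cdc45 and Ccne2 had no probe above background on any of the arrays, while the brightest probe of Pola2 and that of E2f2 were above it only on the arrays PGE2 2 and control 2. The arrays had between 47.9% and 53.8% of their spots well above background, none of these spots was saturated, and no slide or scan batch separated them.

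No replication or G1/S gene passed the test at an adjusted p of 0.05 (limma, Benjamini-Hochberg over all 17660), where 0.668% of all genes did. The cyclins Ccnd1 and Ccnd2 came nearest to it, and both were lower with PGE2. Before adjustment, 9 of the 44 genes were lower at p under 0.05 (20.5%), where 10.5% of all genes were, and Tyms alone was higher (2.27%), where 7.31% were. With the authors' scaled signal these counts were 6 lower and 3 higher, and 4203 of all 17660 genes were under 0.05 in either direction. With a replicate block they were 14 and 3, and 4340 of all genes were under 0.05, against 3151 in the main setting. Both PGE2 arrays lay below both control arrays for 15 of the 44 (34.1%), beside 28.3% of all genes, and above both for 8 (18.2%), beside 24.0%. Pole2 is among the 15 although 1 of its PGE2 values was not above background, and Mcm7 is among the 8 by a margin close to 0. The remaining 21 genes had groups that overlapped. The median change over the 44 was -0.14, against -0.03 over all genes, and 27 of the 44 were below 0 (61.4%), against 52.7% of all genes. The changes ran from -1.79 for Uhrf1 to 0.83 for Gins1, with 6 genes at 1 or more in size and 26 under 0.5. Of all 17660 genes, 1916 were at 1 or more and 12756 under 0.5. Cdk6, 1 of the 6, was above background on 1 of 2 PGE2 arrays.

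**Figure D1:**
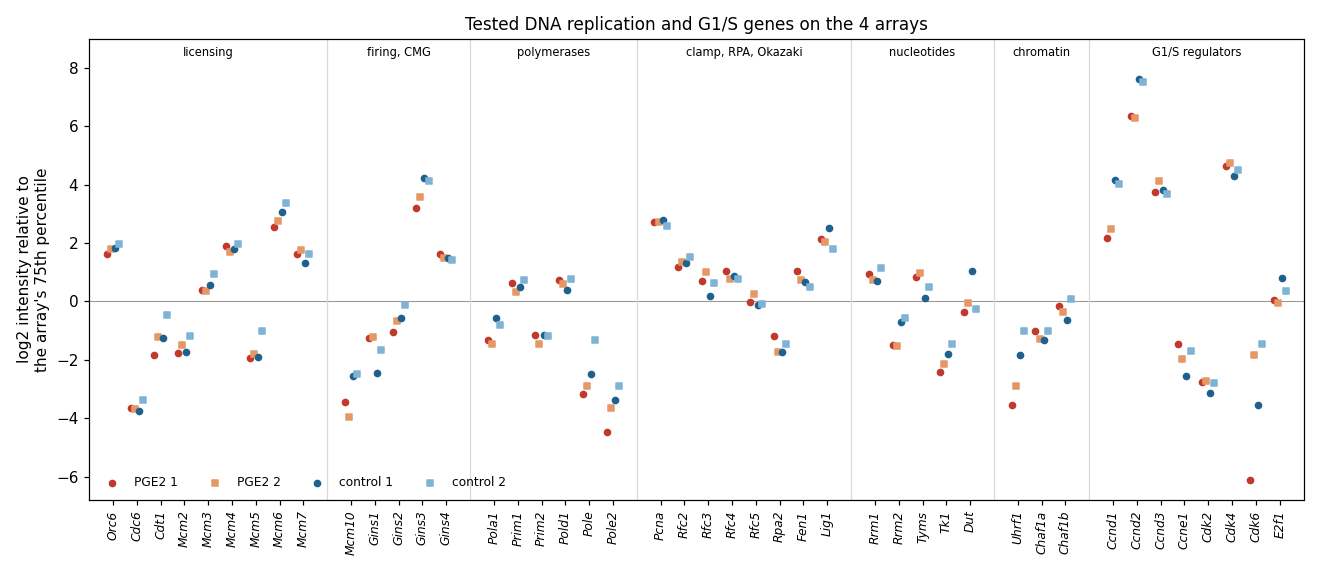
Level of each tested replication and G1/S gene on the 4 arrays, as log2 intensity relative to the array's 75th percentile (vertical axis), with genes grouped by role along the horizontal axis, PGE2 arrays in red and orange and control arrays in blues, each point 1 array. The points of Ccnd1, Ccnd2, Uhrf1 and Rrm2 fall into separate PGE2 and control pairs, whereas those of Pcna and Chaf1a interleave.

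D-type cyclins bind Cdk4 and Cdk6 and carry growth signals into the cycle, and of these Ccnd1 and Ccnd2 were lower on both PGE2 arrays while Ccnd3 was not. Ccnd1 (cyclin D1) stood at 2.17 and 2.49 on the PGE2 arrays and at 4.16 and 4.03 on the control arrays. The groups were apart, and the gap between them was several times the gap within either. The change was -1.76 ± 0.19 (SE, n = 2 each), or 3.39-fold lower with PGE2, with a 95% interval of -2.28 to -1.24 and an adjusted p of 0.0616 (limma). Ccnd2 (cyclin D2) stood at 6.37 and 6.30 with PGE2 and at 7.61 and 7.52 in the controls. Here too the groups were apart, and the replicates of each lay close together. Its change was -1.23 ± 0.15, or 2.35-fold lower, with an interval of -1.65 to -0.81 and an adjusted p of 0.0744 (limma). The 3 probes of Ccnd2 that passed the filter gave changes between -1.38 and -1.16, while Ccnd1 had 1 probe on the array. Ccnd3 (cyclin D3) stood at 3.76 and 4.11 with PGE2 and at 3.80 and 3.67 in the controls. These groups overlapped, and the change of 0.20 ± 0.20 had an interval of -0.35 to 0.74. The difference between its change and those of Ccnd1 and Ccnd2 was not tested. The 3 Ccnd3 probes disagreed in sign, between -0.22 and 0.20, and the change was 0.021 without the PGE2 2 array.

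**Figure D2:**
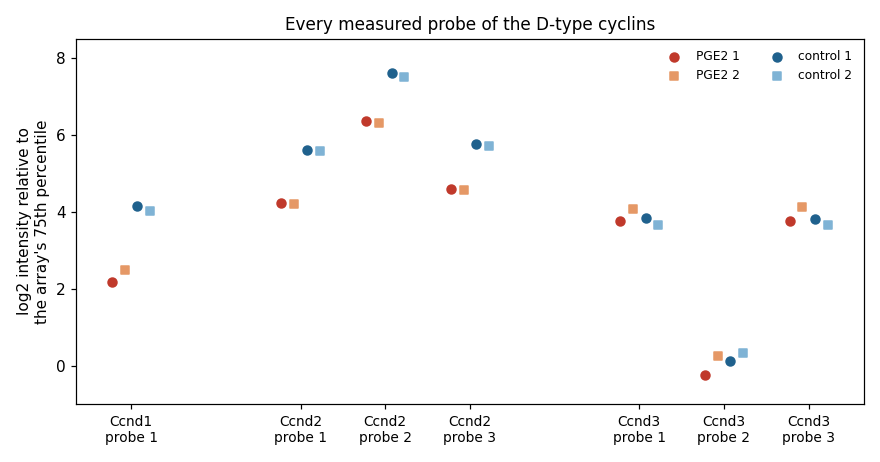
Level of every kept probe of Ccnd1, Ccnd2 and Ccnd3 on each array, as log2 intensity relative to the array's 75th percentile, with PGE2 arrays in red and orange and control arrays in blues. Both PGE2 points lie below both control points for the single Ccnd1 probe and for all 3 Ccnd2 probes, and the points overlap for the 3 Ccnd3 probes.

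The kinase genes gave no lower group with the size or the small spread of Ccnd1 and Ccnd2. Cdk4, the main partner of the D cyclins in many cell types, stood at 4.65 and 4.74 with PGE2 and at 4.31 and 4.50 in the controls. Both PGE2 arrays were above both controls, by 0.28 ± 0.17 (adjusted p = 0.444, limma), and its 4 probes gave 0.16 to 0.28. Cdk2, the kinase of cyclin E, stood at -2.75 and -2.71 with PGE2 and at -3.15 and -2.80 in the controls. Its groups were also apart in that direction, with a change of 0.24 ± 0.19 (adjusted p = 0.567, limma) that was 0.065 without the control 1 array. Cdk6, the other D cyclin partner, stood at -6.12 and -1.85 with PGE2 and at -3.55 and -1.45 in the controls. The replicates of each group were farther apart than the groups, so the change of -1.48 ± 1.66 has no settled direction, and without the PGE2 1 array it was 0.65. Ccne1 (cyclin E1) stood at -1.47 and -1.96 with PGE2 and at -2.55 and -1.69 in the controls. Those groups overlapped as well, and the change was 0.40 ± 0.38 (adjusted p = 0.62, limma), or -0.026 without the control 1 array. E2f1, the activator released from the retinoblastoma protein, stood at 0.04 and -0.06 with PGE2 and at 0.82 and 0.36 in the controls. It was lower on both PGE2 arrays, with a change of -0.60 ± 0.22 with an interval of -1.20 to 0.01 (adjusted p = 0.283, limma), or -0.37 without the control 1 array.

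Among the licensing genes, 8 of 9 tested had changes below 0 (88.9%, against 52.7% of all genes), with a median of -0.18. However, the groups overlapped in 5 of the 9, and PGE2 arrays lay below the controls for 3 (33.3%, against 28.3% of all genes). Mcm6, a subunit of the ring, stood at 2.56 and 2.74 with PGE2 and at 3.07 and 3.36 in the controls. The groups were apart, with a change of -0.56 ± 0.19, or 1.48-fold lower (adjusted p = 0.259, limma), and the second probe gave -0.80. Mcm3 and Orc6, subunits of the ring and of the origin recognition complex, were also lower on both PGE2 arrays, at -0.38 ± 0.19 and -0.18 ± 0.17. Mcm2 (-1.75 and -1.48 with PGE2, -1.73 and -1.20 in the controls) overlapped between the groups. So did Mcm5, which stood at -1.93 and -1.81 with PGE2 and at -1.91 and -1.0 in the controls, a change of -0.42 ± 0.35 that was 0.033 without the control 2 array. Mcm7 lay in the other direction, at 1.62 and 1.75 with PGE2 and at 1.31 and 1.62 in the controls, a change of 0.22 ± 0.19 that was 0.066 without the control 1 array. Its groups were apart only by a margin close to 0, 1.620 on PGE2 1 against 1.618 on control 2. All 6 subunits, Mcm2 to Mcm7, were higher on control 2 than on control 1, and across the 44 genes this held for 31 (70.5%), against 39.0% of all genes. Control 2 thus had higher levels of most of these genes than its own replicate.

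Cdt1 and Cdc6 had overlapping groups. Cdt1, which brings the ring to origins in G1, stood at -1.85 and -1.21 with PGE2 and at -1.25 and -0.46 in the controls. Replicates within each group differed by about as much as the groups did, and the change of -0.67 ± 0.38 had an interval of -1.72 to 0.37 (adjusted p = 0.432, limma). In both groups replicate 2 was the higher, and with a replicate block the adjusted p was 0.125 (limma). Leaving out 1 array at a time moved the Cdt1 change between -1.07 and -0.28. Cdc6, the loading ATPase, stood at -3.66 and -3.70 with PGE2 and at -3.74 and -3.36 in the controls, so the PGE2 arrays lay between the controls. Its change was -0.12 ± 0.20.

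The genes that turn the ring into a helicase lay on both sides of 0. Mcm10, which helps to open the origin, stood at -3.45 and -3.98 with PGE2 and at -2.55 and -2.48 in the controls. The groups were apart, with a change of -1.20 ± 0.24, or 2.29-fold lower (adjusted p = 0.135, limma), but -0.43 with normexp and quantile scaling. Of the GINS complex, which holds the helicase together, Gins3 stood at 3.19 and 3.57 with PGE2 and at 4.23 and 4.13 in the controls. It was lower on both PGE2 arrays, with a change of -0.80 ± 0.20 (adjusted p = 0.18, limma). Gins2 was likewise lower, at -1.06 and -0.66 with PGE2 and at -0.56 and -0.12 in the controls, with a change of -0.52 ± 0.25 that was -0.30 without the control 2 array. Gins1 stood on the other side, at -1.24 and -1.22 with PGE2 and at -2.46 and -1.66 in the controls. Its change of 0.83 ± 0.31 (adjusted p = 0.289, limma) was not shared by its second probe, which gave -0.18, and was 0.43 without the control 1 array. The groups of Gins4 overlapped, at 0.10 ± 0.16, while its second probe gave 0.21 with both PGE2 arrays above both controls. The 4 GINS subunits thus had no common direction.

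Of the polymerases, 5 of 6 tested genes had changes below 0 (83.3%, against 52.7% of all genes). PGE2 arrays lay below the controls for 3 of them (50%, against 28.3% of all genes). Pola1, the catalytic subunit of the polymerase that primes each new strand, stood at -1.32 and -1.45 with PGE2 and at -0.58 and -0.80 in the controls. The groups were apart, with a change of -0.69 ± 0.17, or 1.62-fold lower (adjusted p = 0.18, limma), and the second probe gave -0.35. Pole, the catalytic subunit of the leading-strand polymerase, stood at -3.17 and -2.91 with PGE2 and at -2.48 and -1.31 in the controls. It was lower on both PGE2 arrays, yet the gap between the 2 controls was about as large as the change. Its change was -1.15 ± 0.44 (adjusted p = 0.295, limma), and -0.57 without the control 2 array. Pole2, the second subunit of that enzyme, stood at -4.47 and -3.64 with PGE2 and at -3.38 and -2.88 in the controls, a change of -0.92 ± 0.37 near background that was -0.23 with normexp and quantile scaling. The primase subunits Prim1 and Prim2 (both -0.14) and Pold1, the lagging-strand polymerase (0.08), had overlapping groups. The second kept probe of Prim2, which was dimmer, gave -0.61 with both PGE2 arrays below both controls.

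The clamp, its loaders and the enzymes that join Okazaki fragments had a median change of 0.11, with 6 of 8 above 0. The 2 below 0 were 25%, against 52.7% of all genes, and PGE2 arrays lay above the controls for 3 (37.5%, against 24.0%). Pcna, the sliding clamp that tethers the polymerases, stood at 2.71 and 2.72 with PGE2 and at 2.80 and 2.59 in the controls. The PGE2 arrays lay between the controls, and the change of 0.02 ± 0.16 had an interval of -0.43 to 0.47. Fen1, the flap endonuclease, stood at 1.05 and 0.73 with PGE2 and at 0.67 and 0.50 in the controls. It was higher on both PGE2 arrays, by 0.30 ± 0.20 (adjusted p = 0.485, limma), or 0.14 without the PGE2 1 array. The clamp loader genes Rfc3 and Rfc5 were higher on both PGE2 arrays as well, at 0.44 ± 0.24 and 0.21 ± 0.18, but the other kept probes of Rfc5 gave -0.23 and -0.10. Rfc2, Rfc4, the single-strand binding gene Rpa2 and the ligase Lig1 overlapped, with changes between -0.16 and 0.14.

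Of the nucleotide supply genes, Rrm2 and Tk1 were lower and Tyms was higher on both PGE2 arrays, and Rrm1 and Dut had overlapping groups. Rrm2, the S-phase subunit of ribonucleotide reductase, stood at -1.49 and -1.53 with PGE2 and at -0.72 and -0.56 in the controls. The replicates were close together and the groups apart, with a change of -0.87 ± 0.16, or 1.83-fold lower, and an interval of -1.31 to -0.44 (adjusted p = 0.119, limma). Rrm1, its partner subunit, stood at 0.94 and 0.73 with PGE2 and at 0.69 and 1.16 in the controls, a change of -0.092 ± 0.23. Tk1, the thymidine salvage kinase, stood at -2.40 and -2.15 with PGE2 and at -1.79 and -1.47 in the controls. It was lower on both PGE2 arrays, with a change of -0.65 ± 0.21 (adjusted p = 0.243, limma), and its 3 kept probes gave -0.88 to -0.65. Tyms, which makes thymidylate from deoxyuridylate, stood at 0.83 and 0.98 with PGE2 and at 0.13 and 0.50 in the controls. It was higher on both PGE2 arrays, by 0.58 ± 0.20, or 1.5-fold (adjusted p = 0.265, limma), and its 3 probes gave 0.58 to 0.82. Dut, which supplies deoxyuridylate, had a change of -0.60 ± 0.48.

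Of the chromatin genes, Uhrf1 was lower on both PGE2 arrays and Chaf1a and Chaf1b overlapped. Uhrf1 guides the maintenance DNA methyltransferase to newly copied DNA. It stood at -3.54 and -2.91 with PGE2 and at -1.85 and -1.01 in the controls. The groups were apart, although the replicates of each also differed, and the change was -1.79 ± 0.40, or 3.46-fold lower, with an interval of -2.88 to -0.71 (adjusted p = 0.156, limma). With normexp background correction and quantile scaling it was -0.95. With a replicate block the change was -1.79, with an adjusted p of 0.0548 (limma). Chaf1a, which with Chaf1b places histones on the copied DNA, stood at -1.03 and -1.27 with PGE2 and at -1.31 and -1.02 in the controls. For Chaf1a the change was 0.02 ± 0.20 and for Chaf1b 0.02 ± 0.29, and in both the groups overlapped.

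**Figure D3:**
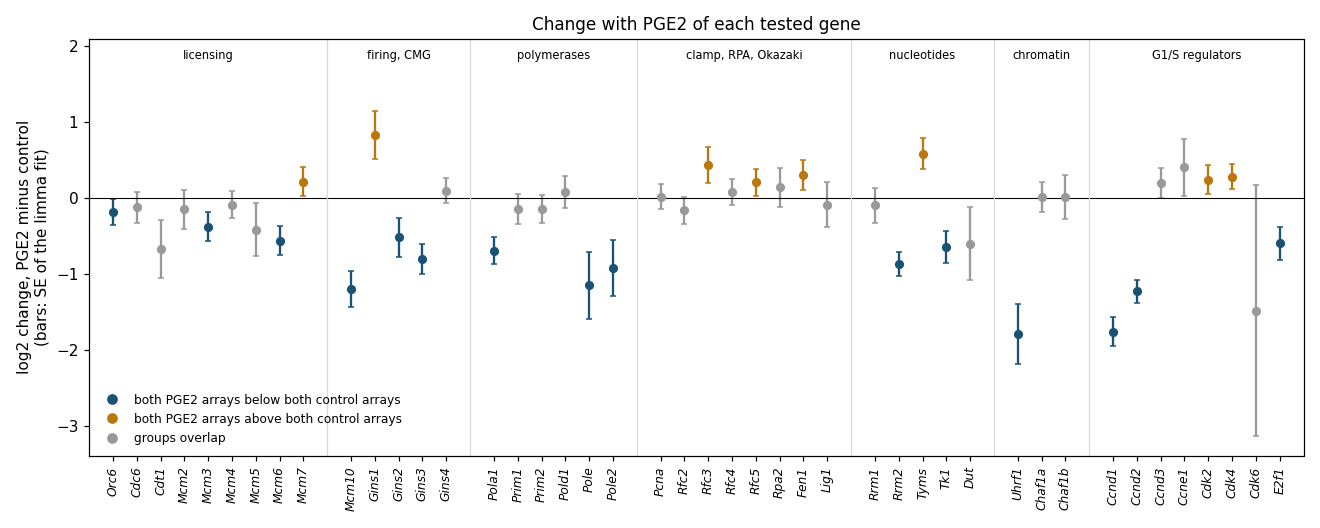
Log2 change (PGE2 minus control) of each tested replication and G1/S gene by role, each point 1 gene with its standard error from limma as a bar, dark blue where both PGE2 arrays lay below both controls, orange where both lay above and grey where the groups overlapped. Of the 44 genes 15 are dark blue, 8 orange and 21 grey, with Uhrf1 at -1.79, Ccnd1 at -1.76 and Gins1 at 0.83.

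Promoters were compared because E2F factors act on many of these genes. RefSeq promoters of GRCm38.p6, from 250 bases before to 50 after the start, were matched by symbol for 39 of the 49 genes (46 promoters). Mcm4, Gins1, Gins2, Gins4, Prim2, Pole, Rfc2, Ccnd1, Ccnd2 and Ccne2 had no match. The E2F motif, searched on both strands as TTTCGCGC or TTTGGCGC, occurred in 12 of the 46 promoters (26.1%), against 0.813% of all 32851 promoters of that length. The cAMP response element TGACGTCA occurred in 1 (2.17%, against 1.79%). The CHR motif TTTGAA occurred in 10.9%, against 17.9% of all promoters and 75% of those of G2/M and mitosis genes, and the CCAAT box in 54.4%, against 37.4% of all. Among the 10 tested genes with an E2F match, the changes ran from -1.79 to 0.44 with a median of -0.49, and PGE2 arrays lay below the controls for 5, above for 2 and overlapped for 3, where 28.3% of all genes lay below and 24.0% above. Without Pole2, which passed the filter through its control arrays alone, the median was -0.42, with 4 of 9 below. For the 25 tested genes with a promoter but no match the median was 0.02, with 6 below, 5 above and 14 overlapping. Without Cdk6, which also passed through its control arrays alone, the median of 24 was 0.02, with 6 below, 5 above and 13 overlapping. The difference between genes with and without a match was not tested. The windows below hold the E2F match in capitals. They are given for those of the 10 genes whose groups were apart and whose match ended within 30 bases past the start. Capitals read GCGCCAAA where the match is on the opposite strand, and each sequence is 5′ to 3′ on the strand of the gene. A match describes the letters and does not show binding.
Uhrf1, chr17:56304088-56304175, plus strand: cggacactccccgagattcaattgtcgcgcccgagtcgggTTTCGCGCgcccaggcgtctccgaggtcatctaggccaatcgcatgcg
Pola1, chrX:93632246-93632333, minus strand: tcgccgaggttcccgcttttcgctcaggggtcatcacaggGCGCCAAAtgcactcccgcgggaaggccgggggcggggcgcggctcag
Pole2, chr12:69228161-69228220, minus strand: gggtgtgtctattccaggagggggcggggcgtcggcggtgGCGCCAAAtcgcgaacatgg
Mcm6, chr1:128359705-128359792, minus strand: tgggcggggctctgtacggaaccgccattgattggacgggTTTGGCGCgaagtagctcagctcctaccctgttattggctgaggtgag
Mcm7, chr5:138171854-138171907, minus strand: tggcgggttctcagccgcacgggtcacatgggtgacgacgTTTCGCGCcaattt
Rfc3, chr5:151651179-151651258, minus strand: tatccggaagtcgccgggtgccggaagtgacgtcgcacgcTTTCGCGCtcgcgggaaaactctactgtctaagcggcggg

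Of these genes Uhrf1, Pola1 and Mcm6 were lower on both PGE2 arrays, Rfc3 was higher, Mcm7 was higher by a margin close to 0, and Pole2 was lower with 1 PGE2 array not above background. Uhrf1 and Mcm7 each had another promoter, from another start, that held no E2F match. Relative to the start that defines the promoter shown, the match begins at -185 in Uhrf1, -138 in Pola1 and -10 in Rfc3. The one shown for Mcm6 begins at -47, and that promoter holds overlapping matches at -110 and -106 on opposite strands. It lies just past the start in Pole2 and Mcm7, and farther past it in Mcm3, which was also lower on both PGE2 arrays.

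The rest of the pathway was read from lists of genes with the same kinds of role. Of 40 other replication genes, 37 were tested and none passed the adjusted threshold. Before adjustment 4 were higher (10.8%, against 7.31% of all genes) and 1 lower (2.7%, against 10.5%) at p under 0.05. PGE2 arrays lay above the controls for 12 (32.4%, against 24.0%) and below for 6 (16.2%, against 28.3%), and the median change was 0.14. The ribonuclease H2 subunits remove ribonucleotides from DNA, and those named by the rule were higher on both PGE2 arrays. Rnaseh2c stood at 4.89 and 4.63 with PGE2 and at 4.25 and 3.82 in the controls, a change of 0.73 ± 0.23, and Rnaseh2a had a change of 0.44 ± 0.15.

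Of 28 other G1/S regulators, 26 were tested and none passed the adjusted threshold, with 2 higher (7.69%) and 5 lower (19.2%) at unadjusted p under 0.05, against 7.31% and 10.5% of all genes, and a median of 0.08. Cyclin-dependent kinase inhibitors, which oppose the cyclins, were among those lower. Cdkn1a (p21) stood at 1.49 and 1.90 with PGE2 and at 2.93 and 2.78 in the controls, a change of -1.16 ± 0.21 (adjusted p = 0.12, limma). Cdkn2b (p15), an inhibitor of Cdk4 and Cdk6, stood at 1.96 and 1.89 with PGE2 and at 4.16 and 3.27 in the controls, a change of -1.79 ± 0.34 (adjusted p = 0.13, limma). In both, the groups were apart in the same direction as Ccnd1 and Ccnd2. Cdkn1b (p27) was higher on both PGE2 arrays by 0.25 ± 0.16. Cdkn1c (p57) stood at 2.71 and 4.04 with PGE2 and at -0.56 and 1.87 in the controls, and its change of 2.72 ± 0.97 came with replicates that lay far apart. Ccna2 (cyclin A2), the cyclin of S phase and G2, stood at -4.88 and -4.28 with PGE2 and at -3.06 and -2.18 in the controls, a change of -1.97 ± 0.40 (adjusted p = 0.138, limma), above background on 1 of 2 PGE2 arrays. Myc overlapped between the groups, with a change of 0.05 ± 0.39.

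Genes of G2/M and mitosis, the phases that follow replication, had a larger median change than the replication genes. Of 35 listed, 25 were tested, and 22 of them were below 0 (88%, against 52.7% of all genes). The median was -0.59, against -0.14 for the replication and G1/S genes. None passed the adjusted threshold, 10 were lower and 1 higher at unadjusted p under 0.05 (40% and 4%, against 10.5% and 7.31% of all genes), and PGE2 arrays lay below the controls for 16 (64%, against 28.3%) and above for 2 (8%, against 24.0%). Ect2, 1 of the 16 and of the 10, was above background on 1 of 2 PGE2 arrays. So were Kif23 and Nuf2, whose groups overlapped. All of these passed the filter through their control arrays alone and are among the 22 below 0. Anln (anillin), a scaffold of the cleavage furrow, stood at -1.68 and -1.04 with PGE2 and at 2.14 and 1.23 in the controls, a change of -3.04 ± 0.41 (adjusted p = 0.082, limma). Its groups were the farthest apart in this list. Ccnb2 (cyclin B2) had a change of -1.55 ± 0.22 and Birc5 (survivin) one of -1.05 ± 0.19. Mki67, the antigen used to mark cycling cells, stood at -3.78 and -2.99 with PGE2 and at -1.68 and -0.85 in the controls, a change of -2.12 ± 0.43 (adjusted p = 0.137, limma). The difference between these 25 genes and the 44 was not tested.

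**Figure D4:**
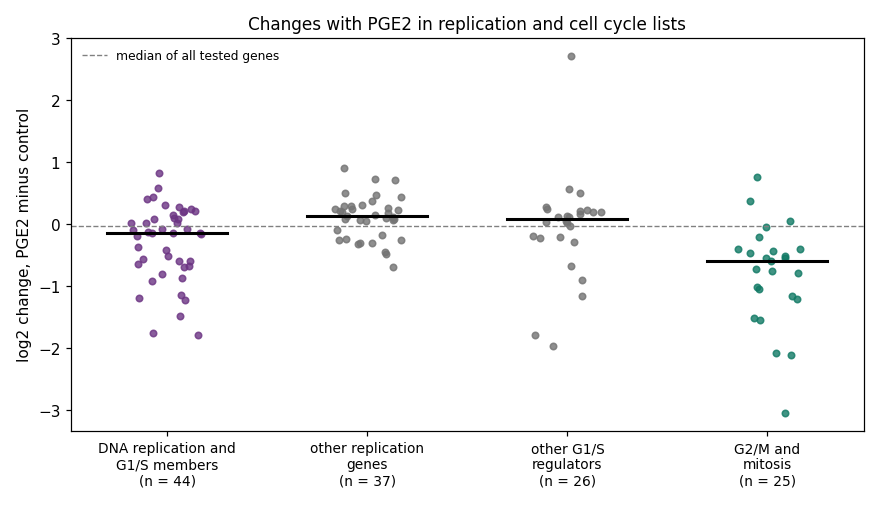
Log2 change (PGE2 minus control) of the tested genes in 4 lists, each point 1 gene, with the list median as a black line and the median of all tested genes as a dashed line. The medians are -0.14 for the replication and G1/S genes, 0.14 for the other replication genes, 0.08 for the other G1/S regulators and -0.59 for G2/M and mitosis.

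In RNA of whole cultures, fewer cells in S phase and less RNA per cell cannot be told apart. The cell type label was checked with 5 marker lists. Sums below are of linear levels relative to the array's 75th percentile. They take the brightest probe of every listed gene, tested or not. The 10 smooth muscle markers, 6 of them tested, summed to 189 and 233 with PGE2 and to 824 and 480 in the controls. Des, Lmod1, Myh11 and Myocd were not tested, and Myocd was above background on none of the arrays. By log2 change, Itga8 (-4.88, adjusted p = 0.0438, limma), Cnn1 (-2.26), Acta2 (-2.10), Tagln (-1.79) and Cald1 (-0.54) were lower on both PGE2 arrays, and Smtn (-0.33) overlapped. The 6 fibroblast markers, 5 of them tested, summed to 96.7 and 92.6 with PGE2 and to 269 and 164 in the controls. Dpt was not above background. On the log2 scale (PGE2 minus control), Dcn (-2.91) and Lum (-2.17) were lower on both PGE2 arrays, Pi16 was higher (2.78), and Col1a1 (-0.0053) and Pdgfra (0.60) overlapped. The 7 leukocyte markers, 5 of them tested, summed to 59.1 and 39.7 with PGE2 and to 76.6 and 63.1 in the controls. Adgre1 and Lyz2 were not above background on any array. On the same scale Cd68 (2.09) and Csf1r (0.98) were higher on both PGE2 arrays, Itgam (-0.61) and Ptprc (-0.36) were lower, and Cd3e (-0.12) overlapped. Of the 7 endothelial markers 2 were tested, and all 7 summed to 0.298 and 0.939 with PGE2 and to 0.929 and 0.770 in the controls. Tek, Emcn and Tie1 were not above background. Of the adipocyte markers none of 4 was tested. The smooth muscle, fibroblast and leukocyte sums were thus all lower on both PGE2 arrays, but a linear sum follows its brightest genes. Itgam made up most of the leukocyte sum, at 5.69 and 5.11 with PGE2 and at 6.17 and 5.86 in the controls. In the fibroblast sum the brightest genes were Col1a1, whose groups overlapped, and Dcn, which was lower. All 6 tested smooth muscle markers had changes below 0, where 52.7% of all genes did, while the fibroblast and leukocyte lists held members on both sides. The part of these markers in the changes of the replication genes was not tested.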

How the data were processed

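RNA of 4 cultures, 2 with PGE2 and 2 controls by sample title, was amplified, labelled with Cy3 and hybridised to 1 array each, per the labels' protocols. Each deposited file of 1 array gives the intensity of every spot, made with Agilent Feature Extraction 11.5.1.1, protocol GE1_1105_Oct12 and array design 074809 with probes on build mm9 per the file headers, whereas version 12.0.3.1 stands in the submitters' processing notes. In the deposited table of all arrays, the signal is that intensity multiplied by 1 constant for each array, and 4 other columns of detection calls were not used. That table gave the gene symbols. Of 59305 spots that are not controls, those of 1 probe were averaged (56605 probes), and 158 flagged probes were left out. The values analysed are the log2 processed intensity less the array's 75th percentile over these spots. Probes well above background on both arrays of a group were kept (26100), the brightest per gene was tested, and 17660 genes or unnamed probes were fitted with limma 3.58.1 in R 4.3.3 (2 residual and 2.15 prior degrees of freedom), with Benjamini-Hochberg adjustment over all of them. The fit was tested on simulated data. Array signal over background and the number of arrays limit the precision.

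Genes were named by rule: members that passed the test, tested members with groups apart and a change of at least 0.5, a fixed set of 26 central members, untested members, and from the other lists the 3 smallest p-values with Cdkn1a, Cdkn1b, Cdkn1c, Ccna2, Myc and Mki67. Some genes that the rule names are not reported here. Other members appear as group examples chosen after their values were seen. Members, lists and motifs were chosen with earlier results of these data known. Alternatives changed the background correction (normexp, planned on mean signal and run on the median signal that the files hold), the scaling, the filter, the probe rule, the arrays and the replicate block.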

Additional observations from a re-analysis of the deposited data

How the results depend on the processing

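In the main setting 118 genes and 0 replication or G1/S genes passed the test. With the authors' scaled signal 0 genes passed (4203 at unadjusted p under 0.05), with no filter on dim probes 0 (2686), and with a filter that needs all 4 arrays 54. Leaving out 1 array at a time gave between 0 and 174 genes, with 0 without control 1 and 0 without control 2, and never a member. The members passing stayed at 0 in every setting but normexp with quantile scaling, where 1 passed, Ccnd1, at -1.77 with an adjusted p of 0.0382 (limma). Over all settings Ccnd1 ran from -1.92 to -1.50 with adjusted p from 0.0382 to 0.306, and Ccnd2 from -1.28 to -0.94 with adjusted p from 0.0648 to 0.367. The median change of the members was -0.14, and 0.12 with the authors' scaled signal, where the median of all genes was 0.23. It ran from -0.26 to -0.039 when 1 array was left out. A replicate block gave 172 genes, 0 members and a median of -0.14, and the member nearest to passing was then Uhrf1 (adjusted p = 0.0548, limma). Samples of equal number deviated together (r = 0.424 over tested genes and 0.542 over the members), but the labels do not say that the numbers mark shared handling. An added 75th percentile over averaged probes, chosen after seeing the data, gave 171 genes and 0 members. Of 29 named tested members, 21 kept 1 direction over 13 settings. Where the groups of a gene are apart, leaving out 1 array cannot reverse its sign, and some genes were named for that. A replicate block leaves every change as it was. This count is therefore no measure of how stable the directions are. Cdc6 reversed to 0.048 with normexp, 0.027 with quantile scaling and 0.13 with the authors' scaled signal, Mcm2 to 0.11 and Rrm1 to 0.17 with the authors' scaled signal, and Pcna to -0.0071 with quantile scaling. With 1 array left out, Cdc6 ran from -0.31 to 0.066, Mcm2 from -0.42 to 0.12, Mcm5 from -0.87 to 0.033, Pcna from -0.086 to 0.12, Rrm1 from -0.32 to 0.14, Chaf1a from -0.12 to 0.16, Ccne1 from -0.026 to 0.83 and Cdk6 from -3.62 to 0.65. In those fits the lone array is assumed to vary like the others. The causes were not tested. Genes near background, such as Pole2, Cdk6 and Ccna2, are limited by their signal, and 2 arrays a group limit all calls.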
